A study of Mus musculus with 3 samples.

Results

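Deaf1, Anpep and Ptprn, a regulator of tissue antigens and 2 genes of the cell surface and of secretory granules, were followed through a polysome gradient after siRNA against Eif4g3. They were chosen by name, with earlier results of these data known. Of 27745 gene names on the array 3 are theirs, with 5 of its 41174 gene probes (3 for Deaf1, 1 for Anpep and 1 for Ptprn). Stromal cells from lymph nodes of the BALB/c mouse strain were kept in culture and given 400 pmol of a control siRNA or of Eif4g3 siRNA. The medium was replaced after 24 h and the harvest followed at 48 h. All 7 plates of an siRNA were combined, so each siRNA is a single pool of cells, and the age of the animals and the siRNA sequences were not used here. The pools were run on sucrose gradients of 10% to 60%, which order mRNAs by the ribosomes they carry. RNA of the top, light polysome and heavy polysome fractions was put on 1 array each, always with the Eif4g3 siRNA pool in red (Cy5) and the control siRNA pool in green (Cy3).

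The siRNA ratio below is the log2 of the Eif4g3 siRNA signal over the control siRNA signal of a fraction, after normalization within the array. No condition was repeated, so there is no p-value, and fraction and array cannot be told apart. The error after each ± is the scanner software's error for the spots of a gene, which leaves out any spread between cultures. A gene is called at a 2-fold difference, an siRNA ratio of at least 1 or at most -1. A probe counts as measured where both channels were well above background. This held on all 3 arrays for 3 of the 5 probes, in the light and heavy fractions for 1 Deaf1 probe, and nowhere for 1 Deaf1 probe.

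Deaf1 is a DNA-binding protein that recognises short TTCG motifs through its SAND domain. In lymph node stroma it is known as a regulator of peripheral tissue antigens, genes of other organs that stromal cells express at low levels and that take part in tolerance of T cells. Ptprn encodes IA-2, a membrane protein of dense core secretory granules in neuroendocrine cells and an autoantigen of type 1 diabetes. Anpep encodes aminopeptidase N, or CD13, an enzyme of the cell surface that trims the amino terminus of peptides. Eif4g3 encodes eIF4GII, a scaffold of the cap-binding complex that recruits ribosomes to capped mRNAs.

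The windows around the RefSeq starts of the 3 genes (GRCm38.p6, 250 bases before to 50 after the start) are shown because TTCG is the motif that Deaf1 recognises. TTCG was searched on both strands, so that TTCG and CGAA count, and matches are in capitals. For Deaf1 and Ptprn, which have 2 starts each in the table, the window with more matches is printed. All 3 genes lie on the minus strand, and the sequences read 5′ to 3′ in the direction of the gene.
Deaf1, chr7:141327676-141327975: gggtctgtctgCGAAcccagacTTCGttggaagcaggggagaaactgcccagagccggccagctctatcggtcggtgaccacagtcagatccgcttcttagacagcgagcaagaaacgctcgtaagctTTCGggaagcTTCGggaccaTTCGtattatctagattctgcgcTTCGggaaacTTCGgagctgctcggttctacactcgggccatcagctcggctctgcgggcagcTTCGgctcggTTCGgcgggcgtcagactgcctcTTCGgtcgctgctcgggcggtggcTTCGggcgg
Anpep, chr7:79848161-79848460: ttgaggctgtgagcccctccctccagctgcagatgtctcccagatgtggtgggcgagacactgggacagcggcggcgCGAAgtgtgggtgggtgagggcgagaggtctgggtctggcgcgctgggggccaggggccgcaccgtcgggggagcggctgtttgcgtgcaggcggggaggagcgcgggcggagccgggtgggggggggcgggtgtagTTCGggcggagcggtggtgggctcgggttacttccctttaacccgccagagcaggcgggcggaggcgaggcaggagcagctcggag
Ptprn, chr1:75263722-75264021: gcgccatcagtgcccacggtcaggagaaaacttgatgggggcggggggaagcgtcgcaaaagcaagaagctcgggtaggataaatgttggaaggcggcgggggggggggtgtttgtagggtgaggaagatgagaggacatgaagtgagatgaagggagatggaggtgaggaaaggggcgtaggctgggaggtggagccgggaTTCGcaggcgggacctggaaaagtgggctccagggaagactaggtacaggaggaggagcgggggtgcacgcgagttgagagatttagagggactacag
The Deaf1 window held 11 matches, 10 as TTCG and 1 as CGAA. It was the only 1 of 32851 windows of 300 bases with 11 or more matches, but it was picked as the higher of 2, and the other Deaf1 window held 0. Which of the starts these cells use is not known here. Anpep held 2 matches, and 16.7% of all windows held 2 or more. The Ptprn windows held 1 and 0. At least 1 match was present in 44.7% of all windows. The siRNA target Eif4g3 had 6 matches in each of its overlapping windows, and 0.149% of all windows had 6 or more. TTCG holds a CG pair, and these shares were not split by base composition. The arrays measured RNA and not binding, so these matches describe letters only.

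The arrays differed in brightness. Background-subtracted signals had upper quartiles of 40.5 (top), 288 (light) and 1078 (heavy) in green, and of 39.6, 686 and 367 in red. Both channels were well above background for 34.8%, 50.2% and 51.6% of probes in the same order. Defining markers were checked in the control channel of the heavy fraction, the brightest in green. There 14 of 16 fibroblastic stromal markers were well above background, as were 7 of 8 smooth muscle and pericyte, 7 of 10 endothelial, 6 of 15 leukocyte, 3 of 6 epithelial and 3 of 12 neuroendocrine markers. The pan-leukocyte gene Ptprc and the endothelial gene Pecam1 were not well above background in the control channel of any array. In bulk RNA, fewer cells of a type and less RNA per cell cannot be told apart.

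Eif4g3, the siRNA target, had siRNA ratios of -0.43 ± 0.16 (top), -1.06 ± 0.16 (light) and -1.77 ± 0.19 (heavy) over its 2 probes. It was thus below 0 on every array and past 2-fold in both polysome fractions. The light value fell short of 2-fold under median centring in place of loess (-0.89) and for its probe A_51_P438363 alone (-0.99). Among Deaf1, Anpep and Ptprn, 1 call was made, for Ptprn in the heavy fraction. Of 14404 measured genes there, 0.305% were 2-fold lower and 0.507% 2-fold higher. In the light fraction 0 of the 3 were called, where 0.291% of 14095 genes were lower and 0.397% higher. In the top fraction 0 of the 3 were called, where 0.265% of 10944 genes were lower and 0.429% higher. Fibroblastic stromal markers also lay lower on the heavy array, with a median siRNA ratio of -0.43 over 13 measured markers (8 below 0) against -0.01 for all genes, 0.03 over 12 on the light and -0.10 over 12 on the top array. The other 5 were above 0 in heavy, so the list was not lower as a whole. Vim, the vimentin gene, was among these 5 (0.37 ± 0.20) and was past 2-fold higher in top (1.05 ± 0.22) and light (1.14 ± 0.23). The part of this in the ratios of the 3 genes was not tested.

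**Figure D1:**
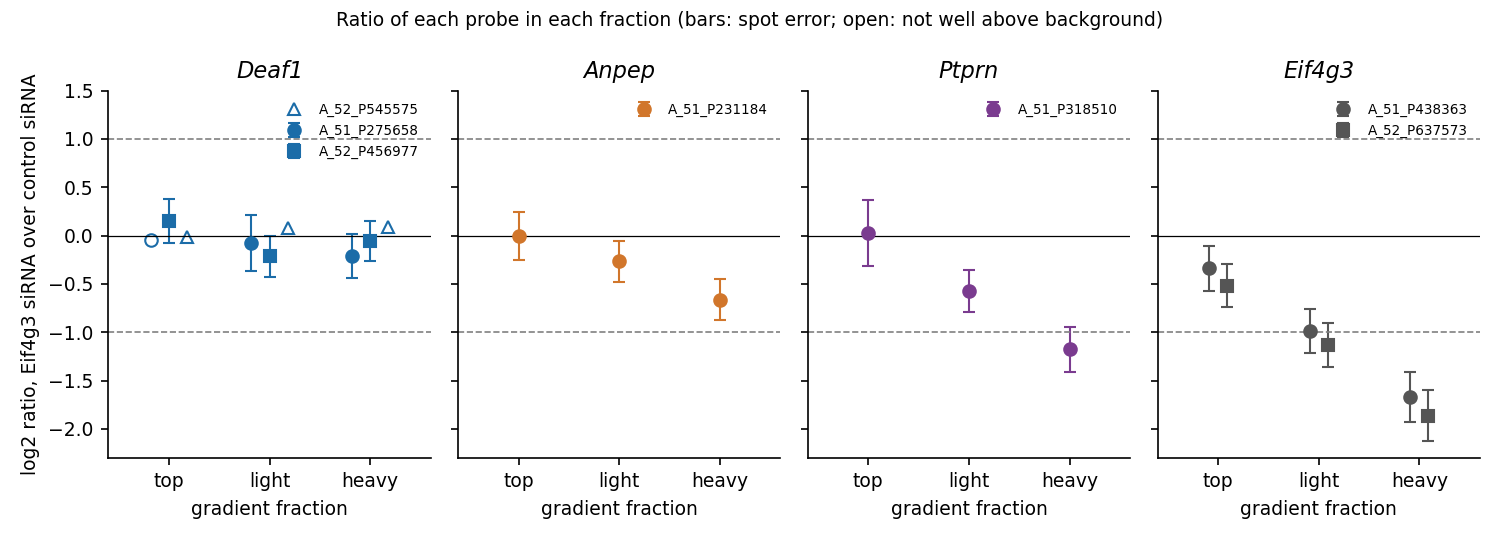
The siRNA ratio on a log2 scale (vertical axis) for every probe of Deaf1, Anpep, Ptprn and the siRNA target Eif4g3 in the top, light and heavy fractions, with 1 array each. Bars are the software's spot error, open symbols are probes not well above background in both channels, and dashed lines mark 2-fold. Ptprn is at 0.03, -0.58 and -1.18 and Anpep at -0.01, -0.27 and -0.66, while the measured Deaf1 probes stay between -0.22 and 0.15.

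Deaf1, the tissue antigen regulator, had siRNA ratios within their spot error of 0 in each fraction, with sizes that depended on the processing. Its 3 probes lie on the minus strand of chromosome 7 (mm8, the build of the array's annotation). A_52_P456977, at 141152927 to 141152986 in the transcript NM_016874, was measured on all 3 arrays. Its mean control signals were 68.7, 233 and 528 from top to light to heavy, and its Eif4g3 siRNA signals were 85.1, 422 and 206. Raw signals follow the brightness of each channel, so they do not show a difference by themselves. The siRNA ratios of this probe were 0.15 ± 0.23, -0.22 ± 0.21 and -0.06 ± 0.21. The light value alone lay just beyond its spot error.

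A_51_P275658, also in NM_016874, runs from 141166259 to 141172439, a span of 6181 bases against 60 for the other Deaf1 probes, so its target is not contiguous in the genome. Its top signals of 36.2 (control) and 49.6 (Eif4g3 siRNA) were not well above background. Its siRNA ratio was -0.08 ± 0.29 for light and -0.21 ± 0.23 for heavy polysomes. A_52_P545575, at 141151821 to 141151880, was designed on the cDNA clone AK080564, whose product the array's annotation gives as inferred to be Deaf1. Its control signals of 36.5 to 47.3 were not well above background on any array. Over its measured probes Deaf1 had 0.15 ± 0.23 (top, 1 probe), -0.15 ± 0.18 (light, 2 probes) and -0.13 ± 0.15 (heavy, 2 probes). These stood above 76.4%, 25.4% and 33.2% of measured genes. Each lies within its spot error of 0, but the light value was -0.27 by the software's ratio, -0.24 without an offset and -0.41 under median centring, beyond that error. Without an offset the top value was 0.29 and the heavy value -0.18, also beyond their errors. Median centring in place of loess turned the heavy value to 0.05, so its sign depends on the normalization.

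Anpep, the surface peptidase, had an siRNA ratio near 0 in the top fraction and its lowest in heavy polysomes, short of 2-fold. Its single probe, A_51_P231184, lies at 79695352 to 79695411 on the minus strand of chromosome 7 (mm8) and was measured on all 3 arrays. The control signals were 58.3, 151 and 723 from top to light to heavy, and the Eif4g3 siRNA signals 70.4, 253 and 183. In these raw signals the Eif4g3 siRNA channel was thus the higher in top and light and the lower in heavy. In top the local background was 25 in green and 39.5 in red, so the raw order there does not show a difference by itself. The siRNA ratios were -0.01 ± 0.25, -0.27 ± 0.21 and -0.66 ± 0.21. The heavy value is a 1.58-fold lower signal, and 2.3% of genes had a lower ratio. In the light fraction 14.7% and in the top fraction 48.3% of genes lay below Anpep. The sign of the top value was not settled, at 0.05 without background correction. The software's ratio put the light value at -0.47, and a zero offset put it at -0.40. Under the 4 settings that can move a gene with 1 probe, the heavy value ran from -0.73 to -0.66, short of 2-fold in each.

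Ptprn, the diabetes autoantigen, was 2.26-fold lower in heavy polysomes of Eif4g3 siRNA cells, while its top value lay within its spot error of 0. Its single probe, A_51_P318510, lies at 75134959 to 75135018 on the minus strand of chromosome 1 (mm8) and was measured on all 3 arrays. The control signals were 47.3, 242 and 1677 from top to light to heavy, over local backgrounds of 25 to 27. The Eif4g3 siRNA signals were 56.4, 333 and 278, over local backgrounds of 38 to 41.5. The probe was dim on the top array and bright in the control channel of the heavy array. Its siRNA ratios were 0.03 ± 0.34, -0.58 ± 0.22 and -1.18 ± 0.23. In the heavy fraction 0.132% of genes were lower, against 2.77% in the light and 54.8% in the top fraction. The heavy value was -1.34 to -1.20 under the 4 alternative settings that can move a gene with 1 probe (background correction, offset, centring and the software's ratio), past 2-fold in each. As the gene has 1 probe, no second spot repeats this value. Of the neuroendocrine markers, 2 of 12 were measured in the heavy fraction, with a median siRNA ratio of -0.09, and Syp, Snap25, Ins1, Ins2 and Gcg were not well above background on any array.

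Loess moved the log2 ratios in opposite directions on the heavy and light arrays. Without a dye swap, dye, labelling and siRNA pool cannot be told apart in that imbalance of channels. On the heavy array it added 1.34 to the log2 ratio of Ptprn, 1.23 to that of Anpep, and 1.21 and 0.77 to those of the Deaf1 probes A_52_P456977 and A_51_P275658. Before it, the log2 ratios were -2.52, -1.90, -1.27 and -0.98. The order of the 3 genes was the same before and after. On the light array it took the log2 ratio of Ptprn from 0.43 to -0.58 and that of Anpep from 0.65 to -0.27, so the sign of both light values depends on balancing the channels, and median centring gave the same signs (-0.60 and -0.38). For the same Deaf1 probes it went from 0.81 to -0.22 and from 0.42 to -0.08. Repeated spots of 1 probe had a median SD of 0.06 (top), 0.06 (light) and 0.09 (heavy) on this scale, and different probes of 1 gene 0.11, 0.16 and 0.15.

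**Figure D2:**
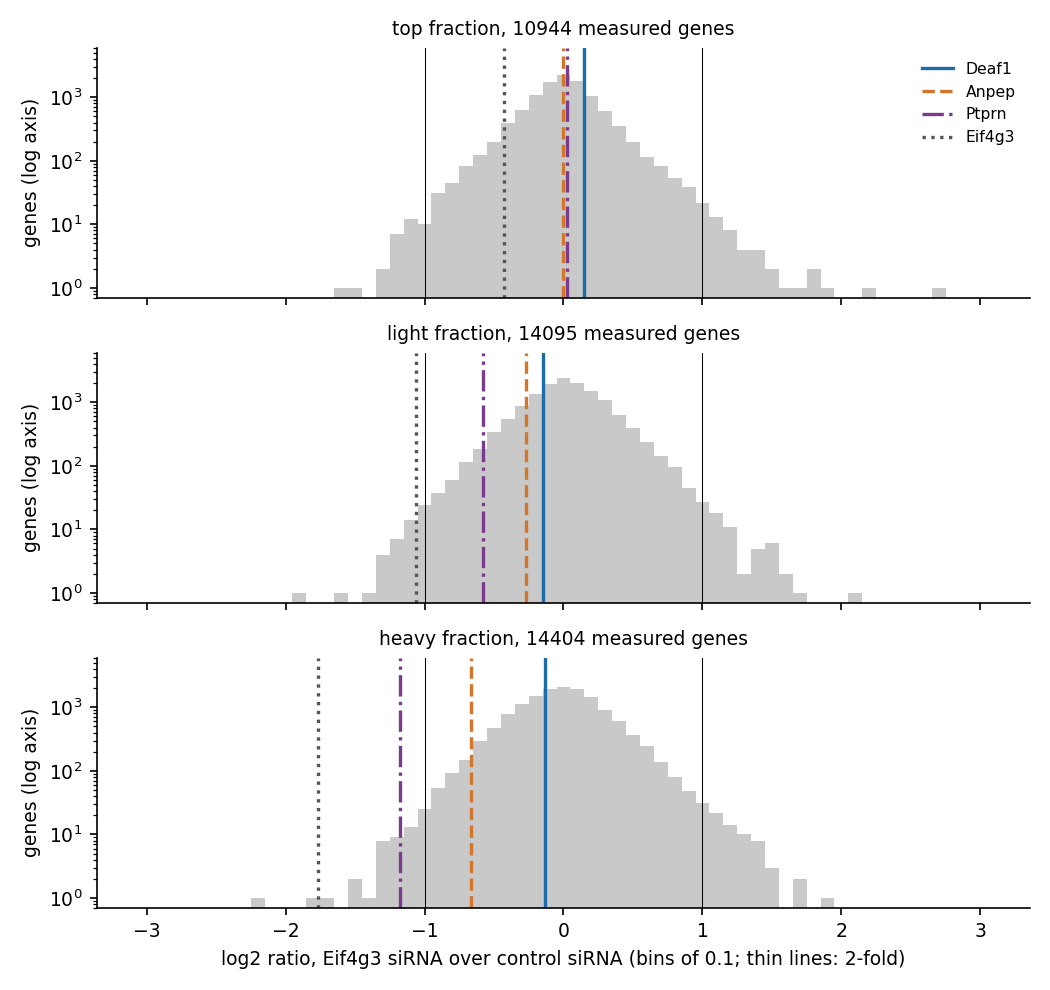
Number of measured genes (log axis) in bins of 0.1 of the log2 ratio in each fraction, with coloured lines at Deaf1, Anpep, Ptprn and Eif4g3 and thin black lines at 2-fold. The 3 genes lie together near 0 on the top array and are spread out on the heavy array, where Ptprn is at -1.18 in the lower tail.

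Heavy minus top compares the siRNA ratio of a gene between both ends of the gradient, and so asks whether its place in the gradient, relative to other genes, differed between the siRNAs. For Ptprn the difference was -1.20 ± 0.41, past 2-fold. Of 10723 genes, 0.699% were past 2-fold lower and 0.811% past 2-fold higher. Anpep had -0.66 ± 0.33 and Deaf1 -0.21 ± 0.31, neither past 2-fold. Differences from top rest on 1 probe for Deaf1, the one measured in top. Eif4g3 had -1.34 ± 0.25, or -0.99 with the software's ratio. Heavy minus light was -0.60 ± 0.32 for Ptprn, -0.40 ± 0.30 for Anpep and 0.01 ± 0.24 for Deaf1. It was -0.19 for Anpep with the software's ratio and 0.47 for Deaf1 under median centring. Light minus top was -0.60 ± 0.40, -0.26 ± 0.33 and -0.37 ± 0.31 for the same genes, and -0.84, -0.39 and -0.61 with the software's ratio.

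Ptprn, Anpep and Eif4g3 had their highest siRNA ratio in top, a lower one in light and the lowest in heavy, and Deaf1 did not. This order was found in 18% of the 10658 genes measured on all 3 arrays. The order together with a 2-fold lower heavy value, as for Ptprn, was found in 0.253%. These differences share arrays and are not independent. Ratios of the dim top array were the most compressed, with a slope on the software's ratio of 0.571, against 0.718 (light) and 0.721 (heavy). With the software's own ratio, which is not compressed in this way, heavy minus top was -1.29 for Ptprn, -0.58 for Anpep and -0.34 for Deaf1.

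Differences between the 3 genes were largest in heavy polysomes. There the siRNA ratio of Deaf1 exceeded that of Ptprn by 1.04 ± 0.28 and that of Anpep by 0.53 ± 0.26. Anpep exceeded Ptprn by 0.51 ± 0.32, and Ptprn exceeded the siRNA target by 0.59 ± 0.30. In the light fraction Deaf1 exceeded Ptprn by 0.43 ± 0.28 and Anpep by 0.12 ± 0.28. The difference from Anpep was within the combined spot error, and under median centring Deaf1 was the lower (-0.41 against -0.38). In the top fraction Deaf1 exceeded Anpep by 0.16 ± 0.34 and Ptprn by 0.12 ± 0.41, both within the combined spot error, so no order can be read there.

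**Figure D3:**
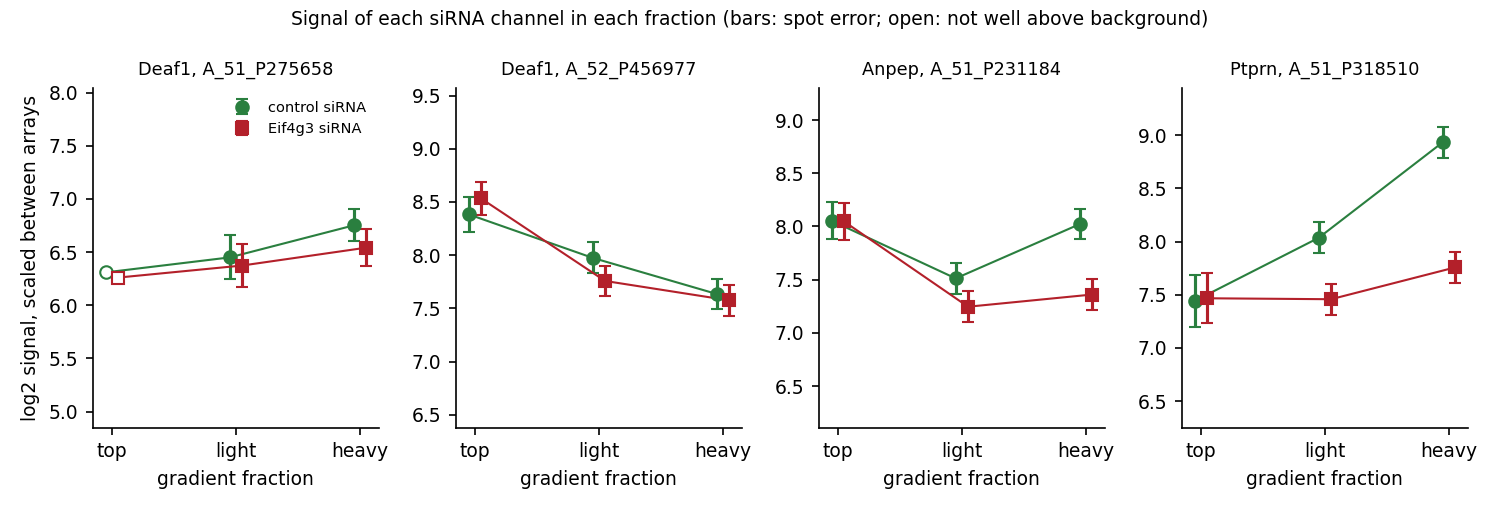
Log2 signal of the control siRNA (circles) and Eif4g3 siRNA (squares) channel in each fraction after scaling between arrays, for the 4 probes of the 3 genes with any measured value. Bars are the software's error of each channel, and open symbols are not well above background. The control signal of Ptprn goes from 7.44 to 8.93 between top and heavy, while its Eif4g3 siRNA signal goes from 7.47 to 7.76.

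Each channel was also followed across the gradient, rebuilt from the normalized siRNA ratio and the mean signal of both channels. A difference between the siRNAs in heavy over top is therefore the heavy minus top difference given above, and no further observation. After scaling of signals between arrays, values are relative to the signal distribution of each array, which removes any change common to all mRNAs. In control cells the log2 signal of Ptprn was 7.44 (top), 8.04 (light) and 8.93 (heavy). Its heavy over top value of 1.49 ± 0.29 was a 2.81-fold higher signal in heavy polysomes. The value lay above that of 93.2% of genes, and 15.4% of genes passed 2-fold in that direction. In Eif4g3 siRNA cells the log2 signals of Ptprn were 7.47, 7.46 and 7.76. Its heavy over top value was 0.29 ± 0.27 there, above 63.4% of genes. On this scale Ptprn signal was thus weighted towards heavy polysomes in control cells, while its 3 values in Eif4g3 siRNA cells lay closer together.

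For Anpep the log2 control signals were 8.05, 7.51 and 8.02 in the top, light and heavy fractions, and the Eif4g3 siRNA signals were 8.05, 7.25 and 7.36. Heavy over top was -0.03 ± 0.23 in control and -0.69 ± 0.23 in Eif4g3 siRNA cells. The Eif4g3 siRNA cells thus had 1.61-fold less Anpep signal in heavy than in top, and the control cells differed by less than the error. For the Deaf1 probe measured on all arrays the log2 control signals were 8.38, 7.97 and 7.63, and the Eif4g3 siRNA signals 8.53, 7.76 and 7.58. Heavy over top was -0.75 ± 0.22 in control and -0.96 ± 0.22 in Eif4g3 siRNA cells, so the signal of this probe was weighted towards the top fraction with either siRNA. The other Deaf1 probe with measured values, A_51_P275658, had none in top and rose from light to heavy. It went from 6.45 to 6.75 in control and from 6.37 to 6.54 in Eif4g3 siRNA cells, so the 2 probes differed in direction over that step. These directions are relative to other genes. Without scaling between arrays all genes shift by a median of 2.96 in control cells because the heavy array is brighter, and the raw heavy over top values were positive for the 3 genes. Relative to that median, Deaf1 was at -1.02, Anpep at -0.47 and Ptprn at 0.90 in control cells. In Eif4g3 siRNA cells the unscaled values relative to their median of 2.97 were -1.24, -1.13 and -0.30, so the sign of Ptprn there depends on the scaling.

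**Figure D4:**
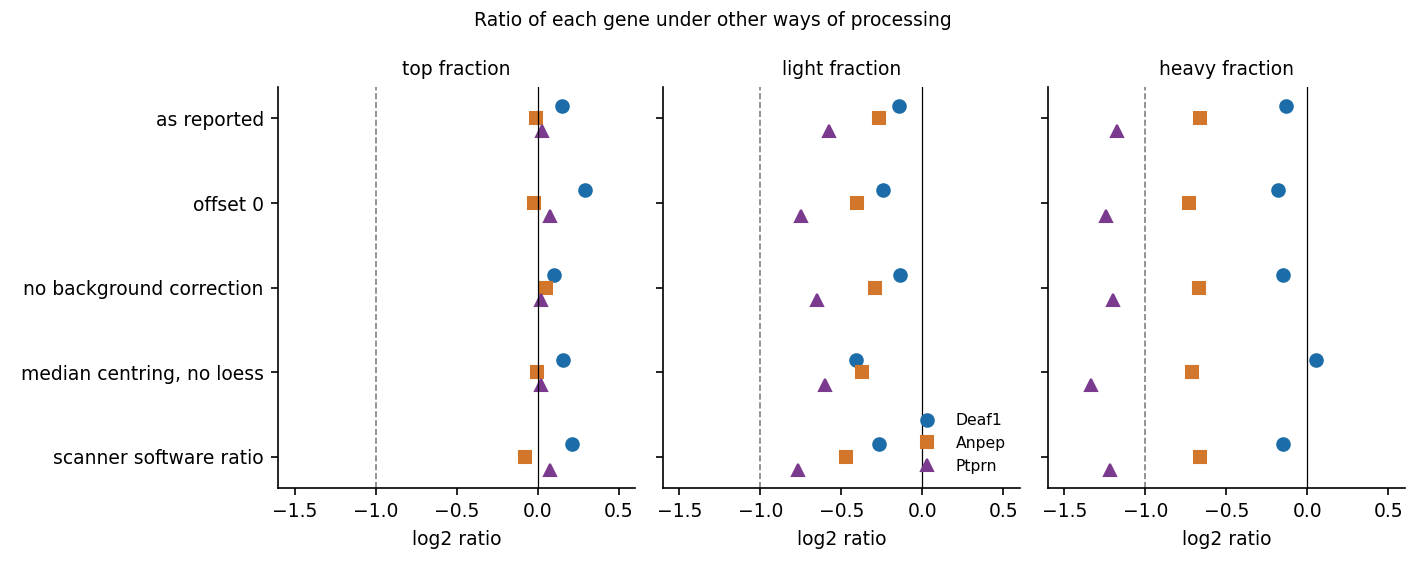
Log2 ratio (horizontal axis) of Deaf1, Anpep and Ptprn in each fraction as reported and under 4 other ways of processing the same arrays (vertical axis), with the dashed line at 2-fold lower. Ptprn lies beyond the dashed line in the heavy fraction in each row, Anpep lies between 0 and that line there, and Deaf1 lies between -0.18 and 0.05 there but reaches -0.41 in the light fraction.

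Genes with the most similar ratios over the 3 arrays were sought among 3785 genes with a current symbol and at least median signal, by the distance between their 3 log2 ratios. For Ptprn these were Fscn1, an actin-bundling protein gene (distance 0.18), Cndp2, which encodes a dipeptidase (0.27), and Sympk, a scaffold gene of mRNA 3′ end processing (0.28), against a median distance of 1.35. Fscn1 had -0.12 ± 0.21, -0.52 ± 0.21 and -1.08 ± 0.22 from top to light to heavy. For Anpep they were Uap1, an enzyme gene of nucleotide sugar synthesis (0.05), Smarcd2 of a chromatin remodelling complex (0.07) and Clptm1, a membrane protein gene (0.08), against a median of 0.81. For Deaf1 they were Eif4ebp2, an inhibitor of the cap-binding protein eIF4E (0.02), Nufip2, an RNA-binding protein gene (0.04), and Rcor1, a corepressor gene (0.05), against a median of 0.53. Each of these distances is smaller than the spot error of the top ratio alone of its gene (0.34 for Ptprn, 0.25 for Anpep and 0.23 for Deaf1). The order among near neighbours is thus not resolved.

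Antigens of single tissues, a list that holds Ptprn, mostly had no measured value. Of 36 on the array, 12 were measured in the heavy fraction, beside 14404 of all 27745 gene names. The 12 had a median siRNA ratio of -0.09 against -0.01 for all genes, a sign that turns under median centring (0.46) and with the software's ratio (0.13). Ptprn itself was the 1 past 2-fold lower, where 0.305% of all genes were, and Ica1l, a relative of the islet autoantigen gene Ica1, was the only 1 past 2-fold higher, where 0.507% of all genes were. Ica1l had 0.20 ± 0.27 (top), 0.68 ± 0.22 (light) and 1.19 ± 0.24 (heavy), an order opposite to that of Ptprn, although the software's ratio put its top value at 0.71, a zero offset put it at 0.52, and its heavy value was 0.70 without the filter on background. In the top fraction 6 and in the light fraction 10 of the 36 were measured, beside 10944 and 14095 of all gene names. The medians were 0.03 and 0.03, and 0 were past 2-fold. Of all genes there, 0.265% and 0.291% were lower and 0.429% and 0.397% higher. The insulin genes Ins1 and Ins2, the glutamate decarboxylase genes Gad1 and Gad2 and the Ptprn relative Ptprn2 were among those with no measured value.

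IA-2 resides in dense core granules, and other granule genes were read beside it. Of 30 on the array, 17 were measured in the heavy fraction, with a median of -0.03, and 1 was past 2-fold, Ptprn itself, where 0.305% of all genes were lower and 0.507% higher. The highest was Rab3a, a GTPase gene of regulated secretion (0.37 ± 0.21). In the light fraction 14 were measured with a median of -0.01 and in the top fraction 11 with 0.03. In either, 0 were past 2-fold, where 0.265% to 0.429% of all genes were in each direction. Among 21 receptor-type tyrosine phosphatases, 12 were measured in the heavy fraction with a median of -0.02, or 0.30 under median centring. The 1 member past 2-fold was again Ptprn itself, so it adds nothing to the call above, with 0.305% of all genes lower. The highest was Ptpra (0.63 ± 0.21). The medians were 0.05 over 12 genes in the light and 0.03 over 9 in the top fraction. There 0 were past 2-fold, beside the same shares of 0.265% to 0.429% of all genes.

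No peptidase was past 2-fold on any array, where 0.265% to 0.507% of all genes were in each direction. Anpep was the peptidase with the lowest heavy minus top difference among 24 with a value. Its -0.66 ± 0.33 was followed by Xpnpep1, an aminopeptidase gene, with -0.57 ± 0.38, so this rank is not resolved. Of 37 peptidase genes, 27 were measured in the heavy fraction with a median of -0.12 against -0.01 for all genes, and 20 were below 0. The lowest was Ggtla1, now named Ggt5, a gamma-glutamyl transferase gene (-0.80 ± 0.22), and the highest Rnpepl1, an aminopeptidase-like gene (0.41 ± 0.21). In the light fraction 28 were measured with a median of 0.04, and in the top fraction 24 with 0.07. Among 36 genes of Deaf1 partners and of proteins with its SAND or MYND domain, 30 were measured in the heavy fraction with a median of -0.13. Of these 0 were past 2-fold, where 0.305% of all genes were lower and 0.507% higher. The lowest was Usp19, a deubiquitinase gene with a MYND domain (-0.69 ± 0.15). In the light fraction 1 of 31 was past 2-fold higher, Sp110, an interferon-induced nuclear body gene with a SAND domain (1.12 ± 0.23), where 0.397% of all genes were. Its heavy value, the highest of the list there, was 0.99 ± 0.23, and it passed 2-fold under 3 of the 4 settings that can move its single probe. The median was 0.03 in the light fraction and 0.04 over 24 genes in the top fraction. Aire, the thymic regulator of tissue antigens that also has a SAND domain, had no measured value on any array.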

How the data were processed

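The members and gene lists were chosen with earlier results of these data known. RNA of 3 gradient fractions was measured on 1 Agilent 2-colour array each. The authors deposited scanner files with a linear intensity for each spot and channel. Per the file headers, the scans were read by Feature Extraction 10.5.1.1. These deposited files also hold the software's log10 ratio with its error and other values such as background flags. The value table that the authors deposited is in log2 and equals the software's ratio within 3.5e-06 over measured probes with 1 spot, with column medians of -0.09, -0.01 and 0.22. Any further centring of it is unknown.

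Mean signals and median local backgrounds were corrected by normexp (offset 50) and loess in limma 3.58.1 (R 4.3.3), control spots at weight 0. Outlier spots were left out, spots of a probe averaged, and a gene is the mean of its probes well above background in both channels. Channel signals were scaled by Aquantile. Because of the offset, dim spots give ratios nearer 0. Spot errors belong to the software's own ratio and were not rescaled to these ratios. Loess centres each array, so a shift of all mRNAs cannot be seen. With 1 array per fraction there was no test and no other depth than signal over background, and the number of arrays limits the precision. Fixed alternatives changed the background correction, the normalization, the ratio, the filter and the probes used. Of the gene names, 19942 matched a current symbol (GRCm38.p6 table, used for names and promoter sequences only). The steps were tested on simulated data. Named were the 3 members, Eif4g3, list genes past 2-fold or else the highest and lowest in the heavy array, and 3 nearest genes per member. Genes named as not measured were chosen after their values were seen, as were Anpep's place among the peptidases, Xpnpep1 beside it and the choice of promoter windows.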

Additional observations from a re-analysis of the deposited data

Results flagged for a closer look

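Ratios with opposite signs in a pair of fractions were looked at again. With 1 array per fraction these differences were not tested. The Deaf1 log2 ratio was above 0 in the top fraction and below 0 in the others, with a difference of -0.21 ± 0.31 for heavy minus top and -0.37 ± 0.31 for light minus top. Both differences rest on the 1 Deaf1 probe measured in top, while its light and heavy ratios are means of 2 probes. Each Deaf1 ratio lay within its spot error of 0, and median centring turned the heavy value to 0.05. The Ptprn log2 ratio was 0.03 in the top fraction and below 0 in the others, with a difference of -1.20 ± 0.41 for heavy minus top and -0.60 ± 0.40 for light minus top.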

How the results depend on the processing

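All alternatives were set with earlier results of these data known. With 1 probe each, Ptprn and Anpep can be moved by 4 settings, since the filters and the probe median leave them as they are and the deposited table repeats the software's ratio. Under those 4 both kept the sign and the side of 2-fold of their heavy siRNA ratio and of heavy minus top. Deaf1 ratios and their differences were not past 2-fold under any setting run. In each case below the cause was not tested.

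Median centring in place of loess moved Deaf1 to 0.055 in heavy, -0.41 in light and 0.47 for heavy minus light, Eif4g3 to -1.97 and -0.89, the list medians of tissue antigens to 0.46 (heavy) and -0.30 (light), of granule genes in light to -0.17 and of receptor phosphatases in heavy to 0.30. It also gave 217 genes higher in heavy, 149 higher in light and 116 lower in heavy, in place of 73, 56 and 44. A normexp offset of 0 moved Eif4g3 to -0.73 in top and -1.05 for heavy minus top. It gave 151, 94 and 109 genes higher and 74, 100 and 82 lower in heavy, light and top, in place of 73, 56 and 47 higher and 44, 41 and 29 lower. The software's ratio, and equally the deposited value table, moved Eif4g3 to -0.80 in top and -0.99 for heavy minus top, and the antigen median in heavy to 0.13. Both gave 252, 148 and 151 genes higher and 103, 156 and 146 lower in heavy, light and top. The Deaf1 probe A_52_P545575 alone, not well above background, gave 0.090 in heavy, 0.077 in light and 0.11 for heavy minus top.

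For heavy over top signals, no normalization between arrays gave 1.94 and 1.73 for Deaf1, 2.49 and 1.83 for Anpep, and 3.86 and 2.66 for Ptprn, in control and Eif4g3 siRNA cells. The medians of all genes were 2.96 and 2.97 there. Software signals scaled at the 75th percentile gave -1.16 and -1.48 for Deaf1, -0.31 for Anpep in control cells, and 1.85 and 0.58 for Ptprn. The medians of all genes were -0.43 and -0.34 under that scaling. Relative to those medians, Deaf1 was at -0.73 and -1.14, Anpep at 0.12 and -0.53, and Ptprn at 2.275 and 0.92. Low signal limits the top values, where the Deaf1 ratio rests on 1 probe. No paired analysis was possible because each fraction has 1 array and no replicate.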
